A study of Mus musculus with 12 samples.

Results

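Among the accessible regions of the mouse dentate gyrus, 728 of 170710 had a peak in every E1 library, in no E0 library and in at least 3 of the 4 E4 libraries. They are called kept regions here. They were chosen by these peak calls alone: the peaks of all 12 libraries on chromosomes 1 to 19 and X were merged where they shared at least 1 bp, and each merged region was then marked present or absent in each library. The calls in E0, E1 and E4 are therefore the rule and not a result. Chromatin accessibility had been mapped by ATAC-seq, in which a transposase cuts and tags open DNA, in the microdissected dentate gyrus of adult C57BL/6 mice aged 8 weeks, with 1 library per mouse. The 3 groups of 4 mice are named E0, E1 and E4, and no genotype or agent is given for them. The series asks how accessibility changes when neurons are activated. What these names mean is not in the labels. As far as the published study is known, they refer to electroconvulsive stimulation: E0 mice were unstimulated, and the digit in E1 and E4 is the hours elapsed since the stimulus.

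The dentate gyrus is the entry station of the hippocampus, and its main cell is the granule neuron, which fires sparsely. Strong neuronal activity switches on immediate early genes within minutes, among them the genes of the transcription factors Fos and Jun. Such factors bind enhancers, stretches of DNA outside promoters that raise the transcription of distant genes, and bound enhancers become accessible to the transposase. Part of the activity-dependent accessibility is known to fade with the first wave of transcription, and part to last. The kept regions are those called at both later time points but not at baseline. In dissected tissue, a peak can come from any cell type present, and a change in the number of cells of a type cannot be told apart from a change in accessibility per cell. No marker gene could be checked, because the peaks are given in mm9 and no gene table of that build was used here.

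The peak lists differed widely in length. The E1 lists held 64152 to 84776 peaks and the E0 lists 36861 to 77130. E4 replicate 1 was by far the longest at 104120, where the remaining E4 replicates had 24426 to 34863, and its scores stood apart too. The regions with a peak in all 12 libraries, of which there were 9037, had a median score of 801 in that list, against 107 to 181 in the other E4 lists and 261 to 483 in the E1 lists. Read depth is unknown, and the lack of a call does not mean closed chromatin. The part of list length in the results below was tested only as far as lists cut to equal length show it.

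Regions with a peak in 4 of 4 E1 and 0 of 4 E0 libraries, called E1-gained, were 3.27% of all regions (5579 of 170710). The kept regions made up 13.0% of them (95% Wilson interval 12.2 to 13.96, counting error only). This share moved with the lists used: it was 37.1% with lists of equal length, and 25.3%, 35.0% and 30.96% without E4 replicate 2, 3 or 4. The comparisons that follow use the lists as deposited. E4 calls took no part in the definition of an E1-gained region, except that E4 peaks helped to set the merged regions. Without E4 replicate 1, 5643 regions were E1-gained. With this limit, the share can be set against other regions. For comparison, 8946 further regions were also present in 4 of these 8 libraries but split otherwise, and 5.33% of them had a peak in at least 3 E4 libraries (4.89 to 5.82). Over all merged regions the share was 12.6%. Among regions with a peak in 4 of 4 E1 libraries it was lowest for those absent from E0. It rose from 13.0% with 0 E0 libraries to 21.3% with 1, 27.7% with 2, 37.8% with 3 and 76.5% with 4.

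The share also followed the level at E1. When E1-gained regions were ordered by their mean score percentile within the E1 lists and divided into 5 groups of equal size, 3.58%, 5.82%, 8.97%, 14.9% and 32.0% were kept, from the lowest group to the highest. In the highest group, 357 of 1116 were kept. Regions with a peak in 4 of 4 E1 libraries and exactly 1 E0 library had higher shares over the same percentile ranges, at 5.68%, 10.2%, 14.0%, 16.9% and 43.2%. The value for E1-gained regions was the lower of the 2 in 5 of 5 ranges, and this difference was not tested. Not all of the 8946 comparison regions, split otherwise over the same 8 libraries, fell in these ranges. For those that did, the shares were 3.80%, 5.71%, 6.92%, 11.9% and 20.5%. They were close to those of E1-gained regions in the lowest 2 ranges and lower in the upper 3. Of the comparison regions, 5024 fell in the lowest range, so their pooled 5.33% weights weak regions more. The 310 without an E1 peak had no such percentile. That of the rest was a mean over fewer E1 lists than for E1-gained regions.

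Seen from E4, 1181 regions (0.692% of all) had a peak in at least 3 E4 libraries and none in E0, and the kept regions were 61.6% of them. A further 207 had a peak in 3 E1 libraries, 122 in 2, 73 in 1 and 51 in none. With the E0 and E1 groups exchanged, 145 regions had a peak in at least 3 E4 libraries and none in E1, and 14 of those (9.66%) had a peak in all 4 E0 libraries. Both counts involve the same E4 mice, and the E0 and E1 lists differ in length. Under the stricter demand of 4 of 4 E4 and 0 of 4 E0 libraries, 0.136% of all regions passed (232), and 175 of these were kept regions.

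Which E4 mice held the kept regions was uneven. E4 replicate 1 had a peak in 728 of 728, replicate 2 in 635, replicate 4 in 570 and replicate 3 in 426. The 553 kept regions with 3 E4 libraries therefore each lacked 1 of the short lists: 302 lacked replicate 3, 158 lacked replicate 4 and 93 lacked replicate 2. The order of these numbers is that of list length. Among the E1-gained regions that were not kept, 88.3% had a peak in E4 replicate 1, but 16.4%, 4.87% and 9.63% in replicates 2, 3 and 4. Leaving out E4 replicate 1 and asking for 2 of the other 3 gave 744 regions, which overlapped 726 of the 728. A region with 3 E4 libraries always has at least 2 of the other 3, so this overlap follows from the rule.

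Each library was then left out of the rule in turn, with the merged regions kept as they were. The call in that library was then not used by the rule, but its peaks had helped to set the regions. Regions that met the rule in the other 11 libraries recurred in the left-out E1 mice. Of these regions, 97.5% had a peak in E1 replicate 1, 97.8% in replicate 2, 93.3% in replicate 3 and 85.8% in replicate 4, a mean of 93.6 ± 5.57% (SD, n = 4). Other regions found in as many of the 11 libraries had a peak there in 70.6 ± 12.85% of cases (SD, n = 4), a lower share in 4 of 4 libraries. With all lists shortened to their 24426 best-scoring peaks the means were 92.3 ± 3.82% and 55.4 ± 5.27% (SD, n = 4). The other regions were matched on the number of libraries only, whereas the rule asks for every remaining E1 library. A higher share at E1 is therefore partly set by the rule.

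In the left-out E0 libraries the shares were low. Regions that met the rule elsewhere had a peak in 14.3% of cases in E0 replicate 1, 39.5% in replicate 2, 5.70% in replicate 3 and 9.57% in replicate 4. The share was highest in the longest E0 list and lowest in the shortest. At equal list length the 4 shares were close together, 11.4 ± 1.25% (SD, n = 4), against 69.5 ± 7.23% for the other regions, which include those with peaks in the other E0 mice. In the cut lists, absence means only that no peak ranked above the cut. Of the 768 regions that met the rule at equal length, 590 (76.8%) had an E0 peak in the lists as deposited. With E0 replicate 2 removed before merging and lists as deposited, 1205 regions met the rule.

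The left-out E4 libraries spread widely, from above every E1 share in replicate 1 to below that of E0 replicate 2 in replicates 3 and 4. The rule then asks for 2 of the 3 remaining E4 libraries. A peak was present in 99.7% of cases in E4 replicate 1, 45.1% in replicate 2, 21.8% in replicate 3 and 33.0% in replicate 4, against 95.8%, 24.7%, 9.71% and 18.5% of the other regions in the same lists. At equal length these shares were 91.1%, 65.8%, 47.1% and 56.7%, against 69.8%, 50.8%, 32.7% and 43.2%. The share was above that of the other regions in 4 of 4 E4 libraries in both settings. The other regions were matched on the number of libraries only, not on which groups held the peaks. A higher share at E4 is therefore partly set by the rule. With the list removed before merging, counts rose most without a short list. Then 1409 regions met the rule without E4 replicate 2, 1953 without replicate 3 and 1727 without replicate 4.

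**Figure D1:**
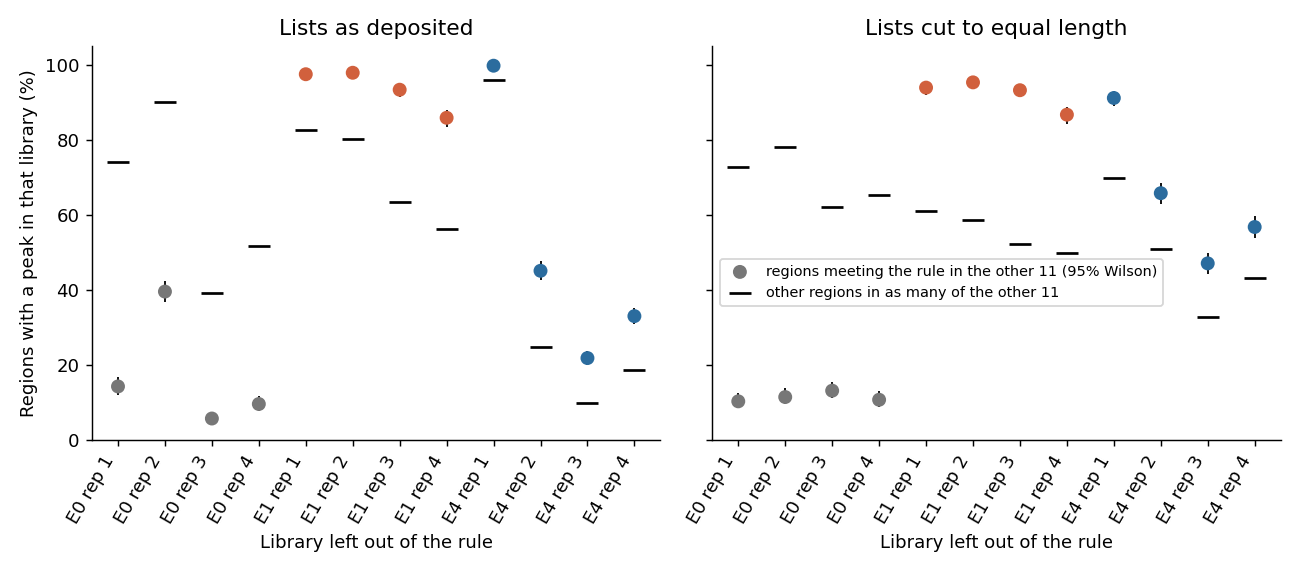
Percent of regions with a peak in a library that was left out of the rule (y axis), for each of the 12 libraries (x axis), with lists as deposited (left) and cut to equal length (right). Coloured points are regions that met the rule in the other 11 libraries, with 95% Wilson intervals, and bars are other regions found in as many of the other 11. The E1 points lie between 85.8% and 97.8% with lists as deposited, and all 4 E0 points lie under their bars in both panels.

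Which regions met the rule changed with list length. With lists of equal length 768 regions met the rule, a similar number, but they were largely other regions: they overlapped 178 of the 728 (24.5%). The remaining 590 had a peak in at least 1 E0 list as deposited, below the rank at which the list was cut. Of the kept regions with 4 of 4 E4 libraries, 87 of 175 met the rule at equal length, and all 10 of those with the highest levels did. Asking for scores of at least 75 gave 421 regions and overlapped 222 of the 728.

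The deposited score has no stated scale, and the lowest value was 50 to 50.01 in all 12 lists. Kept regions had a median score of 358, 86.1, 67.5 and 81.7 in E4 replicates 1 to 4. Their lower quartiles in replicates 2 to 4 were 65.8, 58.8 and 67.6, not far above that lowest value. To compare lists of different length, each region's highest score in a list was placed among the scores of the 9037 regions open in all 12 mice, as a percentile. Kept regions were weak by this measure. Their median percentile was 7.11, 10.1, 14.5 and 16.9 in E1 replicates 1 to 4 and 6.13, 10.6, 18.3 and 12.3 in E4 replicates 1 to 4. The mean over libraries was 12.2 ± 4.38 at E1 and 11.8 ± 5.03 at E4 (SD, n = 4), and the 2 groups overlapped. Since the rule demands a peak in both, and an E4 list gives a value only for the regions it holds, no test was made of this. A minority reached the level of regions open in every mouse. Above the median of those regions lay 13, 23, 64 and 80 kept regions in E1 replicates 1 to 4, and 21, 23, 53 and 16 in E4 replicates 1 to 4.

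E1-gained regions that were not kept were weaker still at E1. Their median percentile was 1.76, 2.53, 5.22 and 6.73 in E1 replicates 1 to 4, below that of the kept regions in 4 of 4 libraries. On the deposited scale the median score of the kept regions was 208, 227, 149 and 141 in E1 replicates 1 to 4, against 134, 137, 103 and 98.8 for the others. Across the threshold the values changed by steps: the median of the mean E1 percentile was 2.54 with no E4 library, 5.15 with 1, 7.63 with 2, 12.2 with 3 and 20.2 with 4. The regions just outside, with 2 E4 libraries, numbered 1454. Another 718 regions failed the rule by 1 E0 library and had a median E1 percentile of 18.1, and 207 failed it by 1 missing E1 library, with 3.61.

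**Figure D2:**
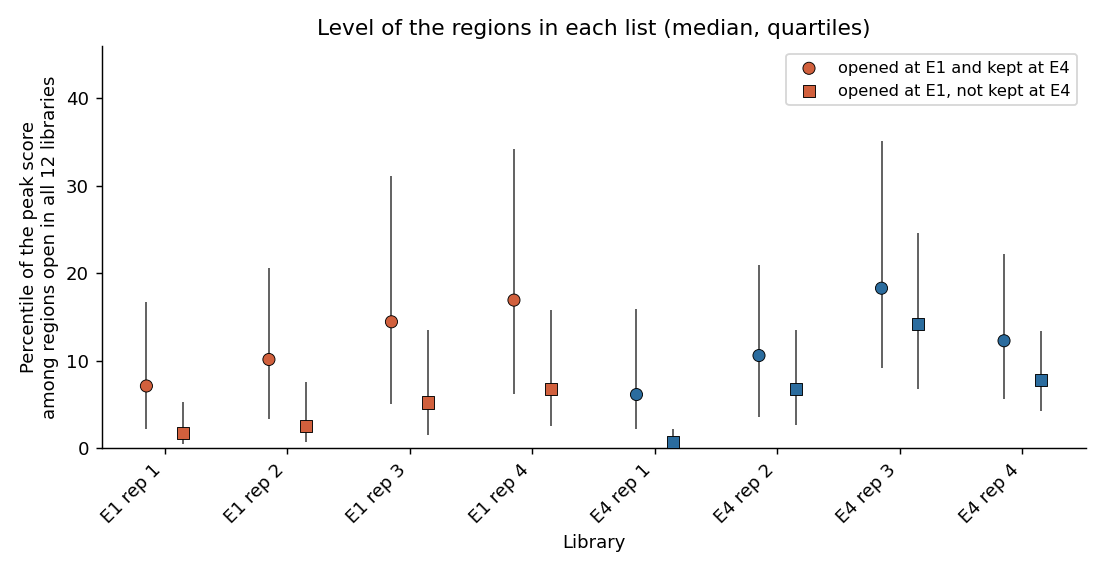
Percentile of the peak score among the regions open in all 12 libraries (y axis) in each E1 and E4 library (x axis), for kept regions (circles) and E1-gained regions that were not kept (squares), with medians and quartiles over the regions that have a peak in that library. The circles lie above the squares in every E1 library. They do so in every E4 library too, but there the 2 sets were split by the E4 calls themselves. The circles of E1 (7.11 to 16.9) and E4 (6.13 to 18.3) overlap.

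Position within the whole list set the 3 shorter E4 lists apart from the E1 lists, but not E4 replicate 1. The median kept region stood at percentile 70.7 to 75.7 of all regions in the E1 lists and at 79.8 in E4 replicate 1, but at 46.3, 46.9 and 44.05 in E4 replicates 2, 3 and 4. These last 3 are the short lists, and the part of list length in this difference was not tested.

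Among the kept regions with a peak in all 4 E4 libraries, the 10 with the highest mean percentile over the E1 and E4 lists were examined singly. The highest mean over the 8 lists was that of a 927 bp region at chr1:40415429-40416355. Its scores were 750.2, 622, 498 and 530.4 in E1 replicates 1 to 4 and 736, 298, 87.7 and 175 in E4 replicates 1 to 4. Against the regions open in all mice it stood at percentile 73.4 to 89.1 at E1 and 36.4 to 82.05 at E4, so the groups overlapped, with the lowest values in E4. The nearest E0 peak was 2096 bp away.

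Next came a region of 1048 bp at chr18:12769458-12770505. It scored 392, 591, 555 and 479.6 at E1 and 1068, 131, 184 and 178 at E4, which is percentile 33.6 to 89.7 at E1 and 29.2 to 82.4 at E4. The ranges of the 2 groups were nearly the same, and 334 bp were shared by all 8 peaks. The third, at chr11:12601524-12602484, scored 578, 600.5, 390.5 and 577 at E1 and 966, 99.3, 75.7 and 198 at E4. No base of it was common to all 8 peaks.

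The region at chr3:120828696-120830000 had a mean percentile of 66.6 at E1 and 51.3 at E4. The region at chr4:17576450-17577230 had means of 53.4 and 56.4. The region at chr3:126622588-126624327 had 59.4 and 47.2, and its edge lay 4 bp from an E0 peak.

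Of the other four of the 10, those at chr18:31626588-31627318 and chr18:70550746-70551720 had higher mean percentiles at E4 (63.1 and 56.3) than at E1 (42.2 and 42.1). The region at chr10:46017953-46018688 had 61.5 at E1 and 38.7 at E4, and that at chr1:14474411-14475144 had 44.9 and 44.2. All 10 met the rule with lists of equal length and with scores of at least 75, and they had been chosen for high scores. With peaks up to 100 bp apart merged, 9 did, since the region 4 bp from an E0 peak then joins it. With peaks spanning 50% or more of the region, 3 did.

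Among kept regions with 3 E4 libraries, the 5 highest were led by the region at chr10:13495193-13496509. It scored 526, 671, 482 and 575 at E1 and 943, 181.5 and 248 in E4 replicates 1, 2 and 3, with no peak in replicate 4, and all 7 peaks shared 446 bp. The others lay at chr8:91962689-91963724, chr3:38491840-38493025, chr18:82035607-82036298 and chr14:68652335-68652996. Their mean percentiles ran from 45.8 to 68.4 at E1 and from 35.3 to 52.2 at E4. That on chromosome 3 had no base common to all its peaks.

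The 175 kept regions with a peak in all 8 lists were chosen for a peak in every E4 list. By the percentile against regions open in all mice, their levels at E1 and E4 were of like size on the whole. They differed widely from region to region. The median of the mean percentile was 20.25 at E1 and 18.5 at E4. The difference, E4 minus E1, had a median of -0.89 and quartiles of -10.5 and 6.38, with 81 regions higher at E4 and 94 higher at E1. In 6 regions every E4 value lay above every E1 value, and in 5 the reverse held. The same counts were not taken for other regions, so they are not read as a trait of the kept regions. Across the 175 regions, Spearman's rho of the percentiles was 0.504 to 0.678 over the 6 pairs of E1 lists. It was 0.0907 to 0.405 over the 6 pairs of E4 lists and 0.0592 to 0.508 over the 16 pairs of an E1 with an E4 list. Regions are not independent replicates, and the lists share the reference regions, so these are given as a description. By position within the whole list, the 175 regions were not of like size in the 2 groups. The mean of the library medians was 79.6 ± 1.52 at E1 and 59.9 ± 17.2 at E4 (SD, n = 4). The E4 lists ran from 49.06 to 85.5.

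The largest excess of E4 over E1 was found at chr8:95230169-95230621. It scored 102.8, 101.8, 106.3 and 128.5 at E1 and 606, 138, 114.5 and 158 at E4, and its percentile was 0.753 to 13.7 at E1 and 27.1 to 54.8 at E4, with no overlap. The region at chr14:80267907-80268885 had percentiles of 0.321 to 3.74 at E1 and 23.1 to 41.2 at E4, again without overlap.

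The region at chr1:121951456-121952290 had 0.542 to 11.8 at E1 and 12.1 to 58.2 at E4, just apart. Those at chr16:47536527-47537117 and chr14:118508892-118509457 overlapped between groups, with mean percentiles of 9.67 and 6.19 at E1 and 43.9 and 32.6 at E4.

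The largest excess of E1 over E4 was at chr4:70350310-70351147. It scored 578, 384, 355.5 and 291 at E1 and 571, 81.4, 50.6 and 66.2 at E4, or percentile 33.8 to 66.0 at E1 and 0.476 to 23.3 at E4. In E4 replicate 3 its score was the lowest of the 8, just above 50, the lowest score in that list. A further pair of regions separated the groups. At chr4:32596740-32597392 the percentiles were 36.6 to 57.5 and 13.9 to 28.9, and at chr1:168139426-168140123 they were 29.97 to 53.9 and 4.04 to 13.8. The remaining pair, at chr5:20004674-20005612 and the chromosome 11 region named above, overlapped between groups. These regions were named for their differences, which are not tested.

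**Figure D3:**
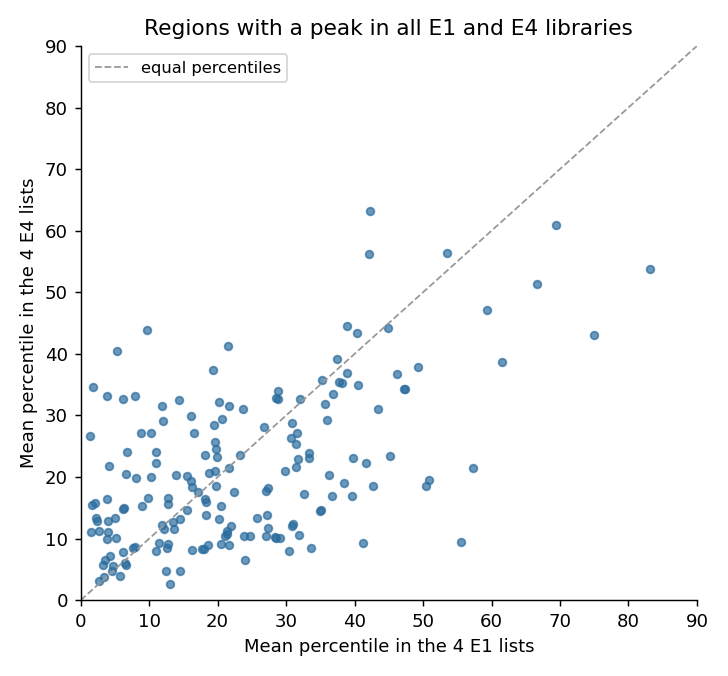
Mean percentile in the 4 E4 lists (y axis) against the mean in the 4 E1 lists (x axis) for the 175 kept regions with a peak in all 8 libraries, each point 1 region and the dashed line equal values. The points scatter widely about the line, 81 above it and 94 below.

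Kept regions were wider than most. Their median width was 690.5 bp (quartiles 578 and 835), against 533 bp for the E1-gained regions that were not kept, 399 bp for all merged regions and 1390 bp for regions open in all 12 libraries. Width rose with the number of E4 libraries, from 457 bp with 0 to 524, 582, 665 and 756 bp with 1 to 4. A merged region grows with every peak that joins it, so its width and the number of libraries are tied. The widths of single peaks are therefore given too. In the E1 lists, the highest peak in a kept region had a median width of 474.5, 537, 397.5 and 363 bp in replicates 1 to 4, wider than the median of all peaks in that list (369, 422, 319 and 295 bp) in 4 of 4 libraries. E4 replicate 1 behaved likewise, with 608 against 431 bp. In E4 replicates 2, 3 and 4 the peaks were slightly narrower than the list's median, with 279 against 302, 242 against 253 and 244 against 266 bp.

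**Figure D4:**
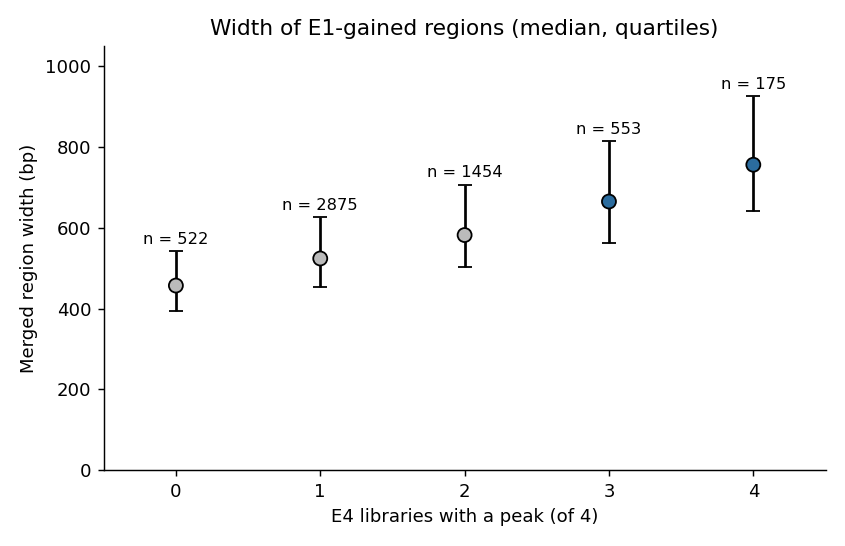
Width of the merged region in bp (y axis) of E1-gained regions by the number of E4 libraries with a peak (x axis), with the median and quartiles. Blue points are the kept regions and grey points those not kept. The median rises from 457 bp with no E4 library to 756 bp with 4.

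Merging joins only peaks that overlap directly or through others, so shared bases within a kept region largely follow from the rule and are given as a description. In 696 of the 728 (95.6%, 95% Wilson interval 93.9 to 96.9) at least 1 base was covered in every E1 and E4 library that had a peak, and the shared stretch had a median of 181.5 bp (quartiles 142 and 223). The mean peak centres at E1 and E4 lay a median of 27.7 bp apart, and 42 regions (5.77%) had centres more than 100 bp apart. Most regions, 671, had a single peak per library. In 32 regions no base was common to all peaks. In 1 of these, the chromosome 11 region named above, the mean centres at E1 and E4 still lay 8.5 bp apart. With the demand that peaks span 50% or more of the merged region, 74 regions met the rule and overlapped 40 of the 728.

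The nearest E0 peak of any mouse lay a median of 5164 bp away, against 5872 bp for E1-gained regions that were not kept. Within 1000 bp of an E0 peak lay 100 of them (13.7%), against 12.8% of the others, and within 100 bp lay 10. Within 10 kb of an E0 peak lay 534 kept regions (73.4%), against 66.7% of the others. A region open in all 12 mice was a median of 72868 bp away, against 84720 bp for the others. Along the genome, 32.4% of kept regions had another E1-gained region within 50 kb, close to the 31.9% of E1-gained regions that were not kept. Where there was such a neighbour, the nearest one was itself kept in 43 of 236 cases (18.2%) for kept regions and in 197 of 1548 cases (12.7%) for the others. Neighbours name each other, so these cases are not independent.

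In all, 51 kept regions (7.01%) lay within 50 kb of another and 12 within 10 kb, as 6 pairs. The share within 50 kb was 11.4%, 13.3% and 13.1% without E4 replicate 2, 3 or 4, with 1409, 1953 and 1727 regions, and 0% among the 74 regions left by the demand for 50% coverage. Such a share grows with the number of regions in a set. Among the 1454 E1-gained regions with 2 E4 libraries, 7.84% lay within 50 kb of another. The closest pair, 1774 bp apart, lay at chr18:25811623-25812849 and chr18:25814624-25816584. Another pair was chr3:126774359-126775623 and chr3:126777850-126779328, with 2226 bp between. The others lay on chromosomes 2, 9, 11 and 16, with gaps of 2358 to 9332 bp.

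Of 2570 windows of 1 Mb that held any region, 460 had 1 kept region, 98 had 2, 20 had 3 and 3 had 4. On chromosome 1, the window from 116000001 to 117000000 had 4 kept among 6 E1-gained regions, in a stretch with only 35 merged regions of any kind. The 4 began at 116112698, 116210467, 116390215 and 116617585, and their mean E1 percentiles were 7.96, 36.1, 10.5 and 19.8.

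On chromosome 3, the window from 126000001 to 127000000 had 4 kept among 9 E1-gained regions, beginning at 126273485, 126622588, 126774359 and 126777850. Their mean E1 percentiles were 6.25, 59.4, 19.4 and 2.35, the second being the highest. The window from 136000001 to 137000000 on the same chromosome had the most E1-gained regions of the 3, 16, and 4 of them were kept. Those began at 136067284, 136396089, 136424421 and 136495628, with mean percentiles of 32.6, 0.622, 6.37 and 0.581 at E1 and 17.3, 17.5, 6.84 and 7.80 at E4. The fourth had no base common to all its peaks.

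The narrowest kept regions were 360, 374 and 384 bp wide, chr12:6937585-6937944, chr3:12829441-12829814 and chr1:138879784-138880167, each with 3 E4 libraries. The widest were 3336, 3093 and 1961 bp, chr15:74387044-74390379, chr2:84714770-84717862 and chr18:25814624-25816584. Mean E1 percentiles were 2.94 to 10.6 in the narrow and 3.44 to 14.2 in the wide regions.

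Kept regions were found on all 20 chromosomes examined, from 12 on chromosome 19 to 75 on chromosome 1. Per 1000 merged regions, chromosome 3 had the most (6.65), followed by chromosomes 18 (6.12) and 14 (6.09), and chromosome 7 the fewest (2.30). E1-gained regions numbered 40.8, 42.8, 35.9 and 21.4 per 1000 on chromosomes 3, 18, 14 and 7. The share of E1-gained regions that were kept ran from 9.54% on chromosome 8 to 16.9% on chromosome 14. The 95% Wilson intervals of 18 of the 20 chromosomes held the overall share of 13.0%. Those of chromosome 3 (13.2 to 20) and chromosome 14 (13.1 to 21.65) began just above it, and no test was made.

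**Figure D5:**
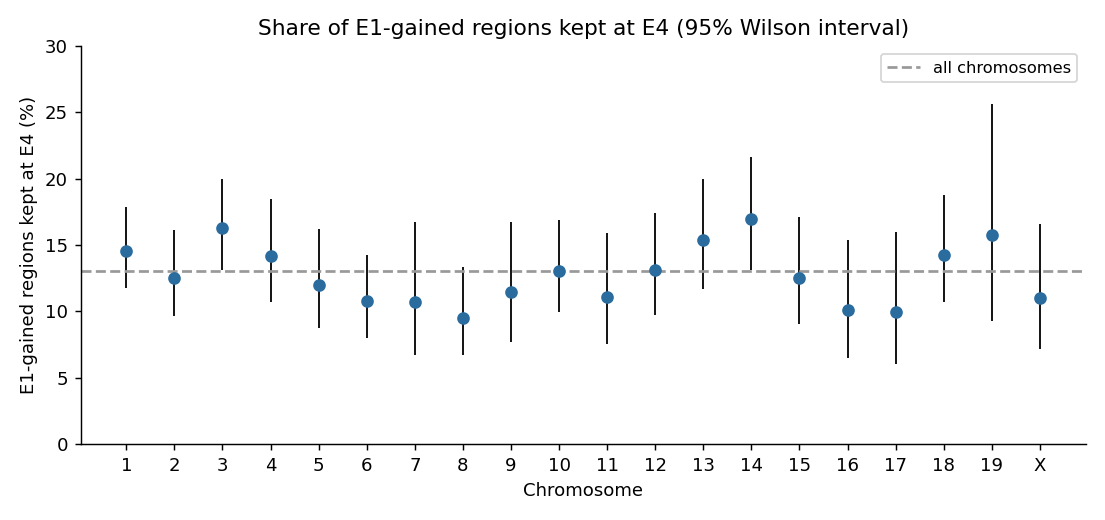
Percent of E1-gained regions that were kept at E4 (y axis) on each chromosome (x axis), with 95% Wilson intervals that cover counting error only, and the share over all chromosomes as a dashed line. The shares run from 9.54% to 16.9%, and 18 of 20 intervals hold the overall 13.0%.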

How the data were processed

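ATAC-seq peak lists of 12 dentate gyrus libraries (4 each of E0, E1 and E4, as titled) were used. The submitters' processing notes name Bowtie2 and the build mm9. The MACS prefix of the peak names is in the files. Each peak has a score, the authors' deposited value, whose scale is unknown here. The lowest score was 50 to 50.01 in every list. Caller version, control, threshold, duplicate handling, transposase shift and blacklist were not given in the sources used here. Without the shift, peak edges would be displaced slightly, and retained duplicates could add peaks to a list.

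Peaks on chromosomes 1 to 19 and X were merged where they shared 1 bp (9 to 43 peaks per library lay elsewhere), and the merge gave the same 170710 regions as bedtools 2.31.1. The rule, percentiles and merge were coded in Python 3.11.15 with numpy 2.4.6, pandas 2.3.3 and scipy 1.17.1, and tested on simulated data. A percentile places the highest score of a region in a list among the regions with a peak in all 12 libraries, with ties at the midpoint. Starts are written from 1. Members and lists of named regions were chosen with earlier results of these data known. Named regions follow a rule: the 10 highest mean percentiles with 4 E4 libraries, the 5 highest with 3, the 5 largest differences each way, the 3 narrowest and widest, and the 3 windows of 1 Mb with most members. No test was made, since the rule uses every contrast. Alternatives were lists of equal length, merging across 100 bp, 50% coverage, scores of at least 75, other E4 minima and leaving out each library. Genes, motifs and sequences were not analysed here, because the tables at hand are of GRCm38.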

Additional observations from a re-analysis of the deposited data

Results flagged for a closer look

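In 71 sets of 4 values, 18 had 1 value far from the other three, where chance flags about 1 in 20. Of the 18, 15 were scores in E4 replicate 1, 1 was the width of its peaks and 2 were scores in E1 mice. The median width of the highest peak in a kept region was 608 bp in E4 replicate 1, against 242 to 279 bp in the other E4 libraries. Its list is also the longest, and its scores were higher in general. The regions with a peak in all 12 libraries had a median score of 801 there, against 107 to 181 in the other E4 lists. The rate of 1 in 20 is therefore no yardstick for its flags.

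The E4 replicate 1 score was above the other three at these regions, given by their start: 1068 at chr18:12769458 (others 131 to 184), 966 at chr11:12601524 (75.7 to 198), 1046 at chr3:120828696 (80.2 to 180.3), 718 at chr4:17576450 (139 to 204), 879.5 at chr18:31626588 (139 to 249), 906 at chr10:46017953 (54.5 to 147) and 727 at chr1:14474411 (93.6 to 173). The same was found at chr8:95230169 (606, others 114.5 to 158), chr14:80267907 (728, 88.1 to 149.8), chr4:70350310 (571, 50.6 to 81.4), chr5:20004674 (520.3, 59.1 to 126) and chr4:32596740 (500.2, 64.2 to 130.4). It was found too at chr1:168139426 (468, 56.8 to 83.1), chr15:74387044 (202, 72.7 to 92.6) and chr3:136067284 (455, 59.5 to 95.8).

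In E1, replicate 3 scored 390.5 at the chromosome 11 region, below the other three (577 to 600.5), and replicate 4 scored 128.5 at the chromosome 8 region, above the other three (102 to 106).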

How the results depend on the processing

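A count was taken as changed when it moved by over 1.5 times, a share or median width when it left its 95% interval, and a percentile when it moved by over 1 SD of the 4 libraries. The median E1 and E4 percentiles stayed within that margin under 15 of 17 and 17 of 18 alternatives. The other results changed more often. The number of kept regions changed under 8 of 18 and their share of the E1-gained under 11 of 16. The share within 50 kb of another changed under 9 of 18, the median width under 9 of 16 and the share with a shared base under 5 of 16. With lists of equal length the share of E1-gained regions kept was 37.1%, the share within 50 kb of another 4.56%, the median width 783.5 bp and the median E1 percentile 19.5. With peaks covering at least 50% of the region there were 74 kept regions, 1.90% of the E1-gained, 0% within 50 kb of another, 100% with a shared base and a median width of 655 bp. Scores of at least 75 gave 421 regions, 9.62% of the E1-gained, 4.99% within 50 kb, 97.9% with a shared base and 736 bp. Merging across 100 bp changed none of the 7 results. Asking for 4 of 4 E4 libraries left 175 regions and for at least 2 gave 2182. Within 10 kb of another lay 1.65% and within 200 kb 20.6%. Within the whole list the mean of the median percentiles was 73.0 at E1 and 54.3 at E4, where the lists ran from 44.05 to 79.8. Leaving out 1 library, which relaxes the rule, gave 744 to 1953 regions, 10.01% to 35.0% of the E1-gained, 6.82% to 13.3% within 50 kb, 95.2% to 97.2% with a shared base and widths of 612.5 to 713 bp. Held-out shares at equal length, an alternative chosen after seeing the data, were on the same side of the other regions' share in 12 of 12 libraries (means 11.4%, 92.3% and 65.2% for E0, E1 and E4). Those other regions were matched on the number of libraries only. Unknown read depth limits all absences. No paired analysis was possible because no result comes from a test.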
